A study of Mus musculus with 8 samples.

Results

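The regions described here are RBM45 CLIP peaks that 2 libraries share. They lie in exons, such as retained introns, that only transcripts outside the GENCODE M21 basic set contain. A shared peak was counted when its midpoint fell in a gene of its own strand, in no exon of the GENCODE M21 basic set, and in an exon of the same gene in the comprehensive set. These exons are called minor exons below, a name that refers to the annotation and not to measured abundance. Of 16399 distinct shared peaks, 16294 lay in genes, and 608 of them met the rule, 3.73% of the shared peaks in genes. They make up 4.22% (Wilson 95% interval 3.91 to 4.56%) of the intronic shared peaks, defined as those in no basic exon. The other 13789 intronic shared peaks and the 1897 shared peaks in basic exons serve for comparison. By the annotated type of the minor exon, 472 of the peaks were in retained_intron, 95 in processed_transcript and 16 in nonsense_mediated_decay exons. Another 25 were in exons of protein_coding transcripts outside the basic set, and 11 peaks lay in exons of several types. Where a peak had several types, it was counted once, taking retained_intron first, then nonsense_mediated_decay, then processed_transcript.

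RNA bound by tagged RBM45 was collected by iCLIP, in which UV light links protein to RNA, the protein is pulled down and the attached RNA is sequenced. All 8 libraries came from mHippoE-2, a transformed mouse hippocampal neuron line, after lentiviral delivery of a mouse RBM45 with FLAG and HA tags, so every library carries the same added protein. The 4 groups of 2 libraries were HA-antibody CLIP and size-matched input without antibody, each from wild-type (WT) cells and from Mettl3 KO cells, which lack the catalytic subunit of the m6A methyltransferase. Crosslinking is stated only for Mettl3 KO, where cells at 85% confluency received 150 mJ/cm2 of UV light 2 times. The stated purpose was to map where RBM45 binds RNA when m6A is present and when it is depleted. The values below come from the peak lists of the 2 WT CLIP libraries, so that no comparison with Mettl3 KO or with input is made. The labels do not state whether each replicate was its own culture, so agreement between them may be technical, and the read depth behind the peaks is unknown.

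A retained intron is an intron that stays in a spliced and polyadenylated RNA, and such RNAs are often kept in the nucleus. A transcript typed for nonsense-mediated decay carries a stop codon well upstream of its last exon junction, and the RNA is degraded once a ribosome meets that stop. RBM45 is an RNA-binding protein of the nucleus with several RNA recognition motifs, studied for its part in amyotrophic lateral sclerosis and for binding RNA with GAC motifs. A peak in a minor exon does not say which RNA was bound, because the same bases are also part of the intron of the unspliced pre-mRNA, and the peak lists hold no expression level.

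The sequences at the centres of the strongest peaks are given as examples. They are the middles of peak intervals, not mapped binding sites. Peaks were ranked by the lower of their folds in the replicates, where a fold is the pileup over the local background that the authors' peak caller gave. The central 30 nt of peaks among the first 10 are printed 5′ to 3′ on the strand of the gene, from GENCODE M21 transcripts (mm10/GRCm38). Capitals mark GAC and runs of 5 or more T. The peak in Mbd1, which ranked eighth, is described without its sequence. A Celf2 peak is added because it was the fifth among processed transcripts, and peaks of Tmco1 and Numbl, each exactly 30 bp wide, are added as the first nonsense-mediated decay peak and the gene with most peaks.
Ide, chr19:37301708-37301737, minus strand: gtgcatGACtagTTTTTaaatacacctgtg
Brox, chr1:183292600-183292629, minus strand: atagtcttggaaagatGACtGACtGACttt
Rbm15, chr3:107327409-107327438, minus strand: atcttgaaggtggtaaccTTTTTgtGACtg
N4bp2l2, chr5:150650504-150650533, minus strand: ccagccGACtGACtttGACaaactgtccta
Calu, chr6:29372973-29373002, plus strand: aaaattgttatttcctgcattctttaccta
Nans, chr4:46495032-46495061, plus strand: aggtttcagctacatcacccttttcctGAC
Lsm7, chr10:80854863-80854892, minus strand: gGACgtgggcatgcaGACagaaatgcaGAC
Atad2, chr15:58111828-58111857, minus strand: tGACagctcctcttttcacttactgagatg
Celf2, chr2:7078665-7078694, minus strand: ccgaaGACtGACttatttctaaGACtaaaa
Tmco1, chr1:167332287-167332316, plus strand: agagcacagccatggtaagGACccccgtgt
Numbl, chr7:27261589-27261618, plus strand: ttgtgtgtgcctggcccaagtcattgtaca

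Among the first 8 of these sequences, 7 hold GAC, and 2, in Ide and Rbm15, hold a run of 5 T. In the Brox, N4bp2l2 and Celf2 peaks a GAC is followed by a single T and another GAC. The Celf2 peak lies over a basic exon of Gm26565 on the other strand, so its strand is uncertain. The fourth peak among processed transcripts, in Pds5b, was not printed, and its central 30 nt hold GAC but not this pair. Across the 584 minor-exon peaks whose central 30 nt could be read from a transcript, 35.1% (31.3 to 39.1%) held GAC and 8.90% (6.85 to 11.5%) held TTTTT.

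The strongest minor-exon peak lay in Ide, the gene of insulin-degrading enzyme. It spans chr19:37301670-37301775 on the minus strand, in the last exon of the processed transcript Ide-203, and its folds were 31.9 in replicate 1 and 26.2 in replicate 2. The peak in Brox had folds of 18.5 and 15.9, and its midpoint lay 33 nt before the 3′ splice site of a 1752 nt intron. These peaks were strong in both libraries, and replicate 1 was the higher in each.

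Rbm15, an RNA-binding subunit of the m6A methyltransferase complex, held a retained-intron peak with folds of 15.4 and 13. It lay 2791 nt into a 3910 nt intron that the 5967 nt exon of Rbm15-202 enters past the 5′ splice site. N4bp2l2 had folds of 15.9 and 10.5, with the midpoint 96 nt past a 5′ splice site. In Calu, the gene of the endoplasmic reticulum calcium-binding protein calumenin, the folds were 11 and 10.5. Of all 608 peaks, 7 had a fold of at least 10 in both replicates, among them these and the Nans peak. Nans encodes sialic acid synthase, and its peak (12.97 and 10.1) also lay within 100 nt of the snoRNA gene Gm22247.

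Below that fold, replicate 1 ran ahead of replicate 2 in several genes. Mbd1, the gene of a methyl-CpG binding protein, had folds of 21.2 and 9.56 over a 218 bp peak, the widest of the 608, in the last exon of Mbd1-204. Lsm7, a subunit of the Lsm rings of U6 snRNA and of mRNA decay, had 16.8 and 9.28 in a 472 nt intron that Lsm7-206 retains whole. Atad2, a bromodomain ATPase of chromatin, had 10.6 and 8.80. Replicate 1 had the higher fold in 387 of the 608 peaks (63.7%), against 69.4% of the other intronic shared peaks.

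**Figure D1:**
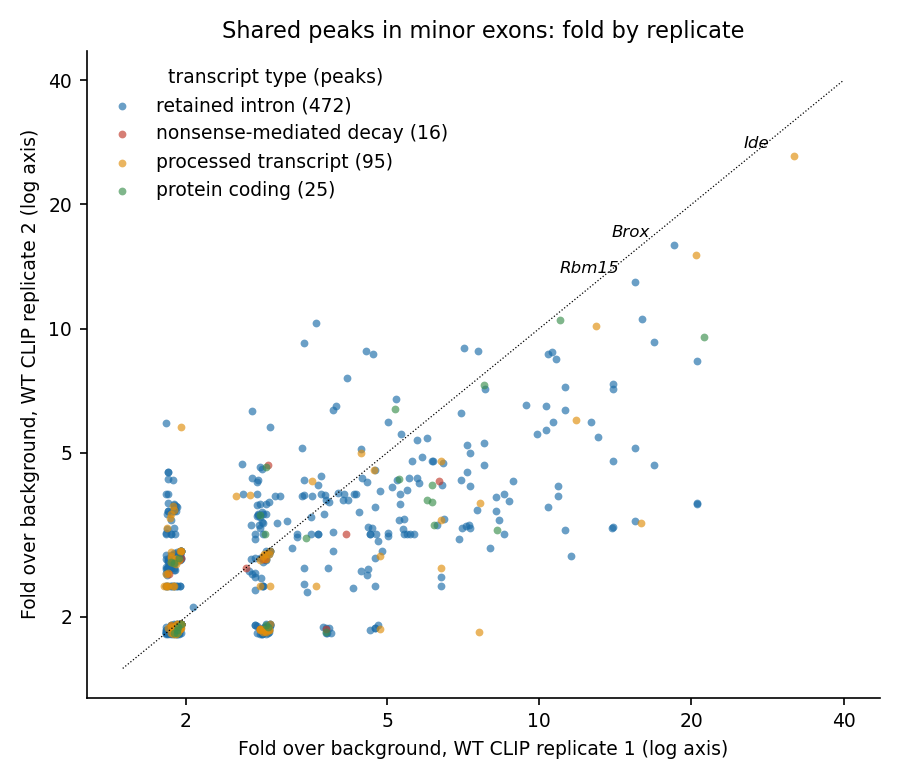
Fold over background of each of the 608 minor-exon peaks in WT CLIP replicate 1 (x axis) and replicate 2 (y axis), both log axes, coloured by the type of the transcript whose exon holds the peak, with the dotted line marking equal folds. Folds fall on steps at the low end, where 346 of the 608 peaks are under 3 on both axes, and Ide stands at 31.9 and 26.2.

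Most minor-exon peaks were weak. The median fold was 2.68 in replicate 1 and 2.73 in replicate 2, and 173 peaks (28.5%) were below 2 in both. Across all 608, Spearman's rho between the replicates' folds was 0.530 and Pearson's r of log2 folds was 0.680. Both are descriptions over peaks of the same pair of libraries. Single-library medians were lower in other introns (1.95 and 1.92) and similar in basic exons (2.72 and 2.74), but the median of the lower of the folds was 1.92 in each of the 3 classes. A fold of 10 or more in both replicates was reached by 1.15% (0.559 to 2.36%) of the minor-exon peaks, beside 1.39% of all shared peaks in genes and 1.46% of those in other introns. For a fold of 5 or more, the share was 6.41% (4.73 to 8.65%; 39 peaks), beside 5.54% of all shared peaks in genes. Neither share stood apart from its background, and 61.5% of the peaks had a width of 30 bp, the smallest one, against 69.5% in other introns.

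Peaks were denser in minor exons than in the rest of the introns, most of all in retained introns. Minor exons cover 23.4 Mb, 2.01% of the intronic bases, and held 25.98 shared peaks per Mb (exact Poisson 95% interval 23.96 to 28.13). The other introns held 12.06 per Mb (11.86 to 12.26), a ratio of 2.15, and basic exons held 17.75 per Mb (16.96 to 18.56). By type, retained introns had 28.1 per Mb (25.6 to 30.8) and processed transcripts 25.5 (20.6 to 31.2). Exons of nonsense-mediated decay transcripts, with 14.8 (8.44 to 24.0), and of non-basic protein-coding transcripts, with 13.9 (9.0 to 20.5), had intervals that include the level of other introns. The order of the 4 types was the same in each library before any sharing step. There, nonsense-mediated decay exons also stood above the other introns of all genes. They held 369.2 (333.9 to 407.3) and 332.3 (298.9 to 368.5) peaks per Mb in replicates 1 and 2. In genes with minor exons, however, other introns held 348.2 and 310.2, inside these intervals. Replicate 1 alone had 526.7 peaks per Mb of minor exons against 292.5 in other introns (ratio 1.80), and replicate 2 alone had 444.0 against 262.2 (ratio 1.69). These intervals cover counting error only.

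**Figure D2:**
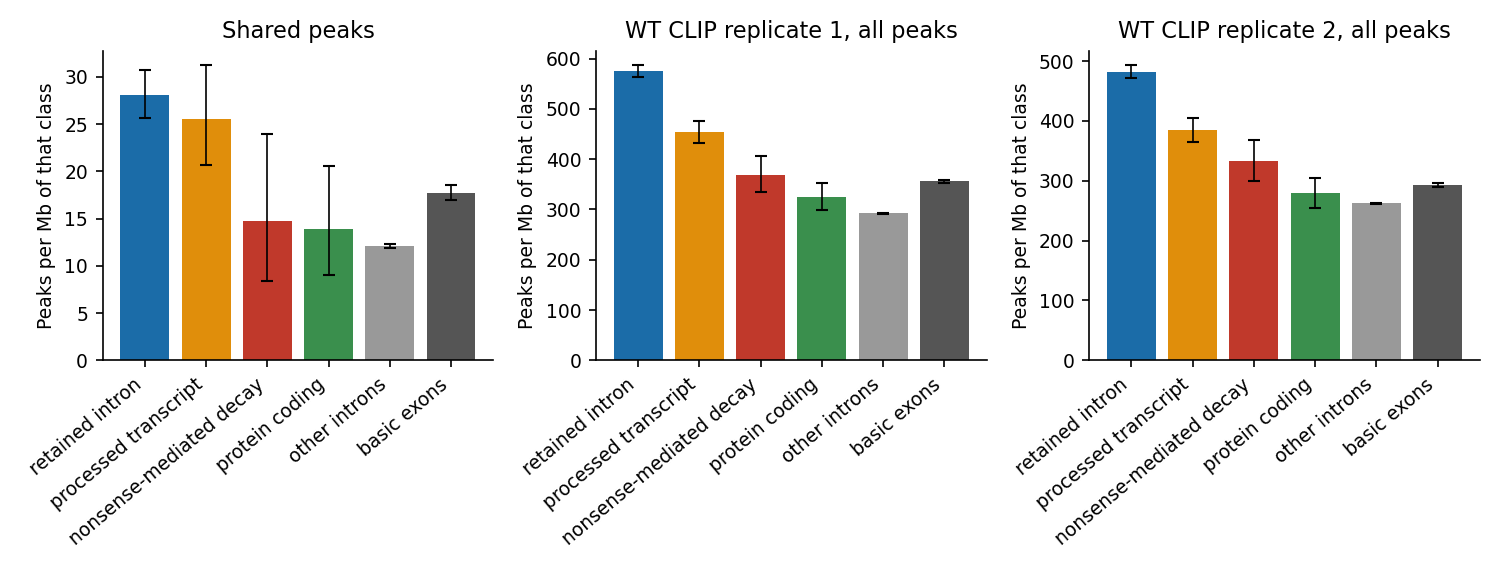
Peaks per Mb (y axis, from 0) in minor exons by transcript type, in other introns and in basic exons, for shared peaks and for all peaks of each WT CLIP replicate, with exact Poisson 95% intervals as bars. In all 3 panels the bars of retained introns and processed transcripts are above that of other introns, at 28.1 and 25.5 against 12.06 per Mb for shared peaks.

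Part of this ratio moved with where and in which genes minor exons lie. Within 2 kb of a basic exon the densities were 28.3 and 14.7 shared peaks per Mb, a ratio of 1.92. Limited to genes that have minor exons at all, the ratio was 1.80 for shared peaks, 1.51 for replicate 1 and 1.43 for replicate 2. Basic exons of these genes came close to that, with ratios to other introns of 1.70, 1.45 and 1.33. They held 24.6 shared peaks per Mb (23.5 to 25.9), beside 25.98 in minor exons. In the 503 host genes the ratio of shared peaks was 11.3, but these genes were chosen by having such a peak. In the same genes all replicate 1 peaks gave a ratio of 1.92 and all replicate 2 peaks 1.82. Both lists still include the peaks by which these genes were chosen, so these ratios are not free of that choice. Transcript levels, input coverage and mappability did not enter these densities, and their part in the ratios was not tested.

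How often a minor-exon peak of one library was found in the other depended on its strength more than on its class. Of 10391 replicate 2 peaks in minor exons, 608 (5.85%, 5.42 to 6.32%) were shared with replicate 1, beside 4.76% of all replicate 2 peaks, 4.60% (4.52 to 4.67%) in other introns and 6.05% (5.79 to 6.32%) in basic exons. Seen from replicate 1, 603 of 12326 (4.89%) were shared, beside 4.18% over all its peaks. Among replicate 2 peaks with a fold below 2, 3.82% of the minor-exon peaks were shared, beside 3.28% in other introns and 3.64% in basic exons. Of those between 3 and 5, 9.87% were shared, beside 9.50% and 10.5%. At folds of 5 to 10, the share was 37.0% (28.8 to 45.9%; 119 peaks) in minor exons, 47.7% (45.3 to 50.1%) in other introns and 31.3% (27.3 to 35.7%) in basic exons. At 10 or more all 8 replicate 2 peaks in minor exons were shared (67.6 to 100%). In other introns 89.8% of 254 such peaks were shared, and in basic exons 59.7% of 62.

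The minor exons that held peaks were mostly extensions into an intron or whole retained introns. In 237 peaks (39.0%, 35.2 to 42.9%) the exon continued a basic exon past its 5′ splice site and ended inside the intron. In 198 (32.6%, 29.0 to 36.4%) it covered the whole intron, and in 105 (17.3%, 14.5 to 20.5%) it began inside the intron and ran into a basic exon across the 3′ splice site. The remaining peaks lay in 33 last exons, 23 first exons, 7 internal exons, 3 transcripts of a single exon, and 2 exons outside every basic intron, both of Tmco1. Separate cassette exons, the form of most poison exons, were therefore few among the exons counted. Where several exons of the counted type held a peak, a whole intron was taken first, then an extension, and an internal exon only after these. The 7 internal exons are thus a lower count and the 198 whole introns an upper one. These counts were not set against the number of bases that each form covers in the annotation. Whether peaks favoured or avoided any form was therefore not tested. Processed transcripts differed in form from retained introns, with 26 of 95 peaks in last exons and 16 in first exons, and 5 in whole introns.

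**Figure D3:**
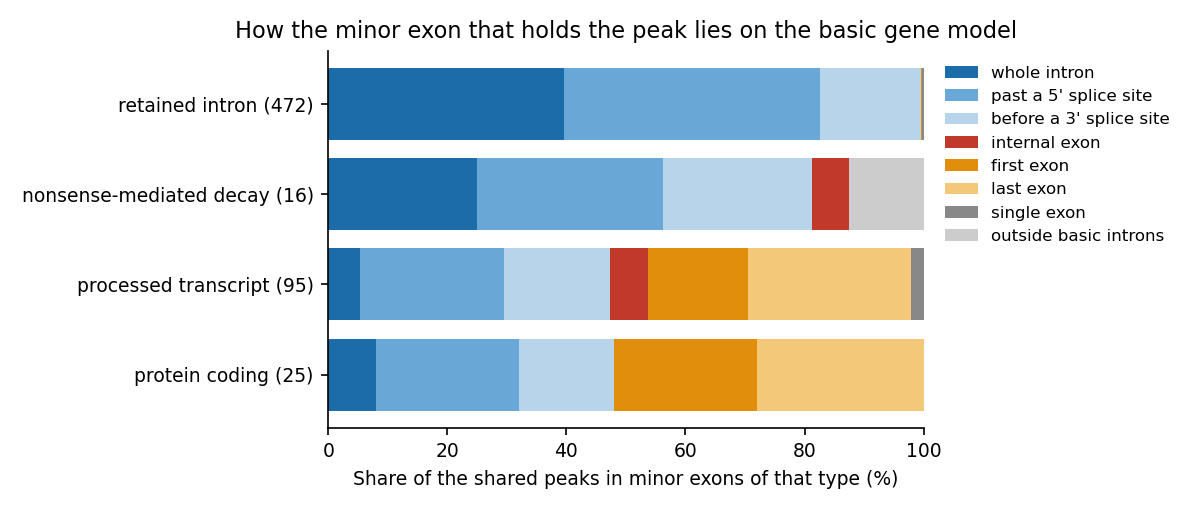
Share of the minor-exon peaks of each transcript type (x axis, percent; number of peaks in parentheses) by how the exon lies on the basic gene model. Retained-intron peaks fall almost entirely in whole introns (187 of 472) and in exons that run past a 5′ splice site (203) or start before a 3′ splice site (80), while processed transcripts also hold first and last exons.

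The host introns were short. The median length of the basic intron under a minor-exon peak was 2126 nt, against 17602 nt under the other intronic shared peaks. The midpoint lay at a median of 314.5 nt from the nearest splice site, against 3203 nt, and 21.3% (18.2 to 24.7%) of the minor-exon peaks were within 100 nt of one, against 4.01% (3.70 to 4.35%). In introns under 10 kb the shares within 100 nt were 24.0% (20.5 to 27.9%) of 504 and 9.32% (8.57 to 10.1%) of 5377. Annotated minor exons abut splice sites by their form, so the rule favours such positions. Within 100 nt, 65 peaks were near the 5′ splice site and 73 near the 3′ splice site. Within 300 nt, 194 (32.0%, 28.4 to 35.8%) were near the 5′ site and 149 (24.6%, 21.3 to 28.2%) near the 3′ site, with median distances of 595 and 988.5 nt over all.

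In the 16 peaks of nonsense-mediated decay exons the folds were low, with none of 5 or more in both replicates. The first was Tmco1, an endoplasmic reticulum calcium channel gene, with folds of 6.32 and 4.27 and a second peak of 1.95 and 2.79. Lonp1, a protease of the mitochondrial matrix, had 4.14 and 3.18 in a 593 nt intron, and the torsin family gene Tor3a had 2.91 and 4.67, 112 nt past a 5′ splice site. Pitrm1, a mitochondrial peptidase, had 2.84 and 2.76, and the focal adhesion gene Parva had 2.87 and 2.76. Of the 16 midpoints, 14 lay in the annotated 3′ UTR of the decay transcript, downstream of its stop codon, and 2 in its coding sequence. How much of the decay exons is annotated 3′ UTR was not counted, so whether peaks favoured it was not tested.

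The other named peaks of minor transcripts are Pds5b, a cohesin regulator, with 11.8 and 5.99 in the first exon of a processed transcript, and Dnajc13, an endosomal co-chaperone, with 5.27 and 4.33 in an exon 80 nt past a 5′ splice site. Celf2, a splicing regulator, had 3 peaks with 4.76, 3.44 and 2.63 in replicate 2. All 3 fell under a single replicate 1 peak of fold 6.38 and lay over a basic exon of Gm26565 on the other strand. The sources used here do not say how the authors gave a peak its strand. For these 3 the 2 genes cannot be told apart, and the same holds for 6 more of the 608. In addition, the intervals of 12 peaks, 2 of them among these 6, are listed on both strands, among them 2 each of Lss, Pclaf, Arhgef40 and Ing4.

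Several genes held a row of peaks in a single exon. Of the 503 host genes, 437 had 1 minor-exon peak, 45 had 2 and 21 had at least 3. Numbl, a Numb relative that acts in Notch signalling in neural progenitors, had 14, in a single 6210 nt exon of the retained-intron transcript Numbl-205 that covers introns of 3206 and 2623 nt. The first of these introns in the direction of transcription held 11 of the peaks and the second held 3. Replicate 2 folds ran from 3.18 to 7.34, and replicate 1 covered the same bases with 8 peaks of 2.70 to 14.01, of which the widest, at 14.01, lay over 4 of the replicate 2 peaks. No shared peak of Numbl lay outside this exon. The 14 are thus not 14 separate observations, and across the 608 peaks, 34 shared a replicate 1 peak with another.

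**Figure D4:**
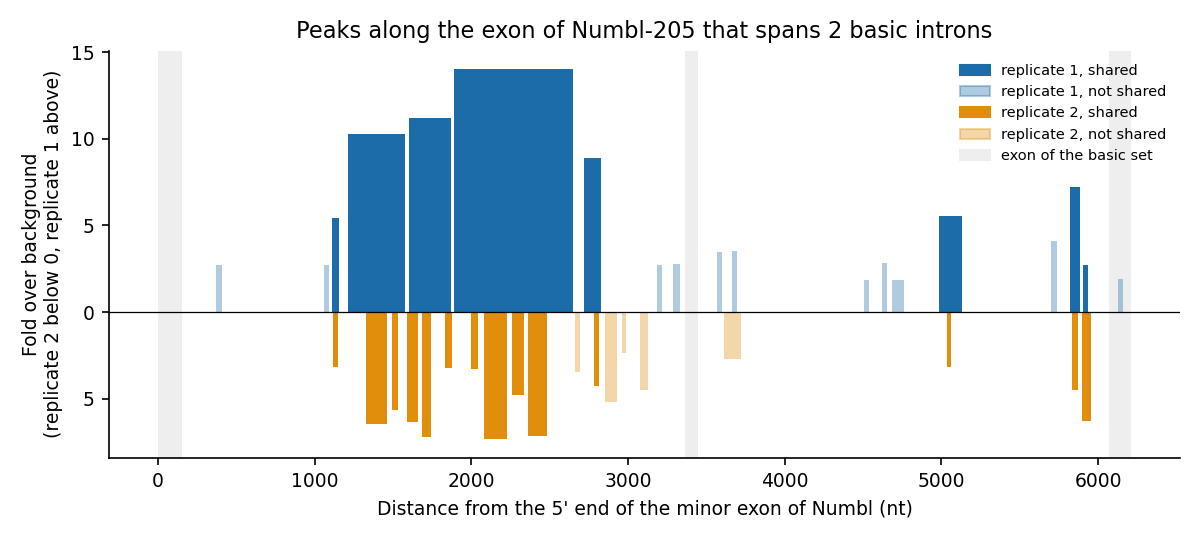
Peaks along the 6210 nt minor exon of Numbl, as distance from its 5′ end (x axis, nt), with the fold over background of replicate 1 drawn upward and that of replicate 2 downward (y axis), shared peaks in full colour and exons of the basic set in grey. Both replicates have their highest folds, 14.01 and 7.34, in the first intron.

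Fdps, the gene of farnesyl diphosphate synthase of the isoprenoid pathway, held 5 peaks in 813 nt of a retained intron, with replicate 1 folds of 5.197 to 20.5 and replicate 2 folds of 3.75 to 8.34. Gcfc2 held 5 in 656 nt (2.82 to 7.29 and 3.18 to 4.99). The 5 of Leo1, a subunit of the PAF1 elongation complex, were weak throughout, at 1.95 to 2.92 and 1.87 to 2.74. Mbd1 held 4 peaks in 1140 nt (6.15 to 21.2 and 3.33 to 9.56) and no other shared peak. Calu held 3, at 84, 189 and 317 nt past the same 5′ splice site, and their folds rose in that order from 5.18 to 7.77 to 11 in replicate 1 and from 6.37 to 7.30 to 10.5 in replicate 2. Tnfrsf12a, the receptor of the cytokine TWEAK, held 3 in short introns of 497 and 245 nt (6.29 to 7.80 and 3.34 to 8.83). Hjurp, the chaperone of the centromeric histone CENP-A, held 3 in its 2121 nt retained intron (7.03 to 10.4 and 3.29 to 8.67).

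The remaining 13 genes with 3 peaks each were more modest. Clasp1, a microtubule plus-end protein, had replicate 1 folds of 3.54 to 7.09 and replicate 2 folds of 3.18 to 8.96, Arhgef40 had 3.39 to 7.54 and 3.64 to 5.13, and Evc, of the ciliary base, had 2.84 to 8.53 and 3.18 to 3.97. Dpp9, Ecd, Runx1, Celf2 and Camkmt had peaks on both sides of a fold of 3, and Krba1, Wdr59, Ptprs, Nat10 and Mical3 stayed below 3 in replicate 1. In 201 host genes the minor-exon peaks were the only shared peaks, and in 302 others shared peaks also lay elsewhere. Peaks of the same gene followed each other at a median distance of 178 nt, with 70 of 105 gaps under 500 nt.

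GAC, the triplet known for RBM45, was denser in the stronger minor-exon peaks. Motifs were counted on the transcript strand alone, with overlapping sites each counted, in windows reaching 50 nt to either side of the midpoint and in windows of the same width 200 nt to either side within the same exon. Windows could be read for 537 of the 608 peaks, with 832 flanking windows. Flanking windows that overlapped another peak were kept, so the flanks are not free of peaks. Peaks with a lower fold under 2 had 11.6 GAC sites per kb against 12.3 in their flanks. Those from 2 to 3 had 15.9 against 13.4, those from 3 to 5 had 22.6 against 12.8, and those of 5 or more had 28.6 against 16.1 (37 windows). At least 3 GAC sites were present in 13.9%, 27.9%, 44.1% and 64.9% of the windows in the same order. In basic-exon peaks this share also rose, at 15.6%, 18.5%, 29.7% and 47.7%, and flanks were not counted in this way. Without the Numbl peaks the strongest class of minor-exon peaks had 28.4 sites per kb against 13.3. Basic-exon peaks also rose, from 13.2 against 12.4 below 2 and 13.9 against 12.7 at 2 to 3 to 18.4 against 14.8 at 3 to 5 and 28.1 against 17.4 at 5 or more. At 3 to 5 their ratio of peak to flank was 1.24, beside 1.76 in minor exons, and the difference between the classes was not tested.

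**Figure D5:**
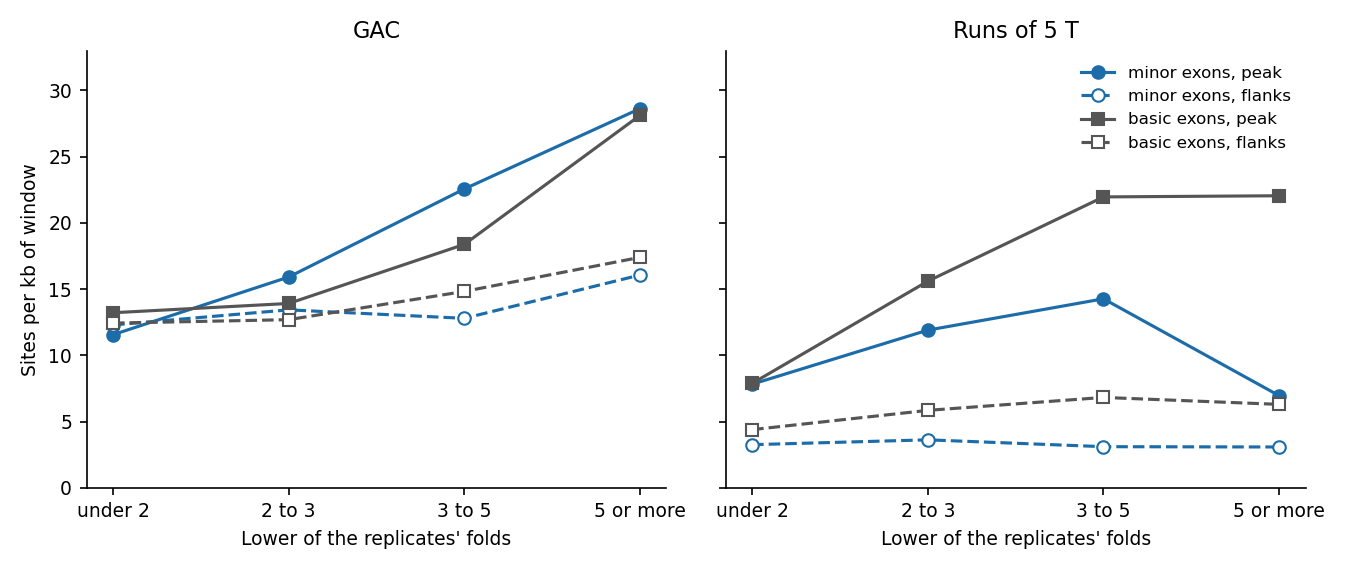
Sites per kb (y axis) of GAC and of runs of 5 T in windows reaching 50 nt to either side of the peak midpoint (filled) and 200 nt away in the same exon (open), by the lower of the replicates' folds (x axis), for minor-exon and basic-exon peaks. GAC on minor-exon peaks rises from 11.6 to 28.6 per kb while the flanks stay between 12.3 and 16.1.

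Pooled over all strengths, the share of windows with at least 1 GAC did not show this pattern, at 69.5% (65.4 to 73.2%) in peaks and 72.0% (68.85 to 74.94%) in flanks. In the stronger classes the intervals of this share also overlapped. It was 80.2% (71.8 to 86.5%) against 74.5% (67.8 to 80.2%) at 3 to 5, and 86.5% (72.0 to 94.1%) against 73.8% (61.6 to 83.2%) at 5 or more. Runs of T behaved differently. TTTTT was found in 24.4% (20.95 to 28.2%) of the peak windows and 16.1% (13.8 to 18.8%) of the flanks, with 9.70 and 3.26 sites per kb, and the density was already higher in the peaks of the weakest class (7.82 against 3.26). It was 11.9 per kb at folds of 2 to 3, 14.3 at 3 to 5 and 6.96 at 5 or more, with flanks of 3.08 to 3.62. In the strongest class the share of windows with TTTTT was 35.1% (21.8 to 51.2%) in minor exons and 37.5% (28.1 to 47.9%) in basic exons, where the density was 22.1 per kb. Among peaks in minor exons of replicate 2 that were not shared, TTTTT was in 21.8% (20.9 to 22.7%) of windows against 17.04% of flanks. The m6A consensus DRACH was found in 87.2% of peak windows and 85.2% of flanks, GACG in 12.7% and 10.6%, and TGTGT in 23.8% and 23.1%, each within the other's interval. By strength, DRACH rose from 17.9 sites per kb against 19.5 in flanks below a fold of 2 to 32.1 against 20.6 at 5 or more. GACG was in 8.06% of windows (flanks 8.28%) below 2 and in 29.7% (17.5 to 45.8%; flanks 8.20%, 3.55 to 17.8%) at 5 or more, where TGTGT was in 37.8% and 39.3%. GACG always contains GAC and many DRACH sites do, so these counts are not independent of the GAC count.

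Of the 64 trinucleotides, GAC had the highest ratio of peak to flank density (1.77) in minor-exon peaks with a lower fold of at least 3, followed by TTT (1.44), and with the Numbl peaks left out it was again first. In those under 3, TTT was first and GAC was 29th. The tandem form GACTGAC, seen above in Brox and N4bp2l2, was present in 5.59% (3.94 to 7.86%) of the 537 windows and 1.44% (0.827 to 2.50%) of the flanks. It was in 13.5% (8.92 to 19.95%) of 148 windows with a lower fold of 3 or more, each from a different gene (20 genes), and in 0.803% (0.221 to 2.88%) of 249 flanks. Celf2, with its uncertain strand, is 1 of these genes. Below 3 the tandem was in 2.57% (1.40 to 4.67%) of windows and 1.72% of flanks. In replicate 2 peaks of minor exons that were not shared it was in 0.750% (0.589 to 0.955%). In shared peaks of basic exons of all folds it was in 3.41% (2.56 to 4.51%), an interval that overlaps that of all minor-exon peaks. The split by fold, the trinucleotide ranking and the tandem form were chosen after the data were seen, and a match describes letters in a window, not a bound site.

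Genes of RNA processing were looked up by lists. A minor-exon peak was present in 8.17% of all 6154 genes with a shared peak (503 genes). Poison exons and introns regulate the levels of many SR genes, which was not checked here for each listed gene. Of 15 SR and TRA2 genes, 3 had a shared peak and 2 of them a minor-exon peak. Srsf2 had folds of 4.69 and 8.69 in a whole 686 nt intron, and Srrm2 had 2 peaks (4.54 and 8.81, 5.11 and 4.13). Of 41 hnRNP and other splicing regulator genes, 16 had a shared peak and 3 a minor-exon peak. Besides Celf2 these were U2af1, the U2 snRNP auxiliary factor that reads the 3′ splice site (3.03 and 3.37), and Hnrnpa2b1 (2.07 and 2.11, 33 nt before a 3′ splice site). Of 19 genes listed for detained introns, 5 had a shared peak and 2 a minor-exon peak. Ogt, the O-GlcNAc transferase whose level is set through a detained intron, had 9.40 and 6.52, and Clk2, a kinase of SR proteins, had 3.31 and 3.18 in a whole 346 nt intron.

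Of 20 genes of the m6A machinery, 10 had a shared peak, and Rbm15 and Hnrnpa2b1 had one in a minor exon. None of the 4 listed nuclear long non-coding RNAs with a shared peak had one there, and 603 of the 608 peaks lay in protein-coding genes. Among the other 5 were 2 in Snhg5, a snoRNA host gene, with 5.33 and 5.54 for the stronger. With 3 to 16 genes per list, these counts are too small to be read as shares. Marker genes gave no check of the cell type, since 4 of 23 neuron, astrocyte, oligodendrocyte, microglia and endothelium markers had any shared peak and none a minor-exon peak.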

How the data were processed

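The deposited lists used were the peaks of WT CLIP replicates 1 and 2 and the peaks they share. The submitters' processing notes name bedtools 2.25.0, deepTools 3.2.1, HOMER 4.11.1, MACS2 2.1.1.20160309, Novoalign 3.09.00 and the mm10 build. The sources used here do not give their settings, the use of input as control or how a peak got its strand. Each deposited peak carries the authors' score, a fold, which is the ratio of pileup to local background from their peak caller, and the −log10 p, of which the score is 10 times. Peaks were called per library. Repeated lines were removed, which left 387749 peaks in replicate 1 and 344700 in replicate 2. The 16399 shared intervals were equal to those recomputed as replicate 2 peaks covered by at least 50% on the same strand.

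Peaks were placed by midpoint on GENCODE M21, and sequence was read from its transcripts, since a genome sequence was not used here. The minor exon described was that of 1 transcript per peak. No test was run: the values are counts, densities and shares of peaks from 2 libraries, with Wilson or exact Poisson 95% intervals that cover counting error only. The 8 library columns of a deposited count table, and 8 of its summary, match no sample's labels and were not used. Named genes were the first 10 peaks by the lower fold, the first 5 of each type, genes with at least 3 peaks and member genes of the lists. 1 peak that this rule names is not reported here. Printed sequences beyond the 30 bp peaks of that rule are the central 30 nt. The rule, the members and the lists were chosen with earlier results of these data known. Scripts used scipy 1.17.1, pandas 2.3.3, numpy 2.4.6 and matplotlib 3.10.9 under Python 3.11.15.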

Additional observations from a re-analysis of the deposited data

How the results depend on the processing

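The count of 608 minor-exon peaks moved to 39 with a fold of 5 or more in both replicates and to 399 with transcript support levels 1 to 3, and lay between 487 and 623 under the other 5 definitions. The density ratio of 2.15 was 1.69 to 1.80 with either replicate alone and 1.92 within 2 kb of a basic exon. It was 1.80 in genes with minor exons and 2.50 for folds of 5 or more, above 1 in each setting. In host genes it was 11.3, but these were chosen by holding a shared minor-exon peak. The shared percentage of 5.85 was 9.53 when 1 bp of overlap sufficed and 4.89 for replicate 1 peaks. The percentage with folds of 10 or more was 1.15 for both replicates, 1.32 to 6.09 for either alone and 6.41 for folds of 5. TTTTT was in 16.2% of windows reaching 25 nt to either side of the midpoint, against 24.4% at 50 nt. The percentage near a splice site was 48.7 at 300 nt. Genes with minor exons, Numbl left out, peaks over an exon of the other strand left out and flanks free of basic exons were alternatives chosen after seeing the data. No paired analysis was possible because the results come from no test. Unknown depth limits what a missing peak can say, and most peaks here are near the smallest width and fold.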
